A study of Danio rerio with 16 samples.

Results

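The zebrafish genes klf17, klf2a and klf2b were followed across 16 samples of whole embryos in which protein synthesis had been blocked. Every probe carrying one of these 3 symbols in the platform's probe-to-gene table was taken, which gave 5 of the 21495 probes tested and 3 of the 9238 named genes. klf17 had the probes A_15_P110039 and A_15_P119506, klf2a had A_15_P108040, and klf2b had A_15_P119126 and A_15_P119736.

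Krüppel-like factors are zinc-finger transcription factors that bind GC-rich and CACCC-type elements in promoters and enhancers and act as activators or repressors. In zebrafish, klf17 (earlier names biklf and klf4b) is known for its part in hatching gland and early blood formation. klf2a is best known for its response to blood flow in endothelium, and klf2b for its expression in embryonic epidermis. All 3 genes are transcribed in the blastula, where they have been studied as targets of the POU factor Pou5f1, whose gene is now named pou5f3, and in the outer epithelium of the embryo, the enveloping layer. Cycloheximide stops translation, so a transcript that responds to an injected mRNA in its presence does not need proteins made after the block.

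Every embryo, in all groups, was kept in 15 µg/ml of the drug between 1.5 and 4.7 hours post fertilization, when RNA was taken from pools of 60 to 100 embryos per sample. The MZ_Pou5f1 group (3 samples) consisted of spg mutants with the m793 allele, lacking maternal and zygotic Pou5f1, injected with 100 pg of Pou5f1 mRNA per embryo. The MZ_Sox2 group (4 samples) consisted of the same mutants given 50 pg of Sox2 mRNA, and the MZ group (3 samples) of mutants left uninjected. WT_Sox2 (3 samples) denotes wild-type embryos given 50 pg of Sox2 mRNA, and WT (3 samples) uninjected wild type. The samples lay on 13 Agilent 2-colour arrays on 4 slides, 1 sample per dye channel. On 3 of the arrays both channels held samples, each time MZ with WT. The series design text calls the replicates biological. Values below are normalised probe intensities in arbitrary units or their log2, and levels of different probes are not compared.

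The samples did not follow their labels closely, and each group below means the samples carrying that label. Only 6 of the 16 samples correlated best with a sample of their own group. WT replicate 3 and MZ replicate 1 had the lowest median Spearman correlation with the rest, 0.859 and 0.880, against 0.900 to 0.951 in the other 14, and dark-control signals of 52.8 and 133, against 7.42 to 12.6. WT replicates 1 and 2 correlated with each other at 0.997. Some of the closest pairs crossed groups: MZ_Pou5f1 replicate 3 with WT replicate 1 at 0.993, MZ_Pou5f1 replicate 2 with WT_Sox2 replicate 3 at 0.987, and MZ_Sox2 replicate 3 with MZ replicate 3 at 0.987. The injected and mutated genes went against the labels or did not check them. For pou5f3, probe A_15_P113369 averaged a log2 intensity of 14.27 ± 0.59 in MZ_Pou5f1 samples and 15.25 ± 0.63 in MZ samples (SD, n = 3 each), and probe A_15_P117974 averaged 13.70 ± 0.41 and 14.52 ± 0.70 in the same groups. For sox2, the averages were 6.42 ± 1.06 in MZ_Sox2 (SD, n = 4) and 8.22 ± 0.81 in MZ (SD, n = 3), and 4.65 ± 0.52 in WT_Sox2 and 7.33 ± 0.84 in WT (SD, n = 3 each). The position of these probes on the injected mRNAs is not known here. Whether samples or channels were exchanged was not tested, and every direction below holds for the labels as given. An exchange of the channels of an array with MZ and WT samples would turn the sign of that array's difference. The blastula transcript vox was at a log2 intensity of 10.63 or more in every sample and the embryonic globin hbbe1.1 between 2.84 and 3.38. Other genes of their marker lists did not follow them. The blastula markers tbxta, vent and foxd3 fell to 6.98, 4.28 and 2.48 in their lowest samples. Among genes of tissues not yet formed, the muscle actin gene actc1b read 7.40 to 11.23. In their highest samples mylpfa, hbae1.1 and ins, of that same list, reached 6.87, 7.70 and 7.555.

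On its brighter probe, A_15_P110039, klf17 was above the dark controls in all 16 samples, bright in 10 and dim in the other 6. The probe A_15_P110039 read 20.9, 18.4 and 25.6 in MZ_Pou5f1 replicates 1 to 3, where the dark controls read 7.75, 7.50 and 9.87. In MZ_Sox2 replicates 1 to 4 it read 264, 5319, 2568 and 2667, and in MZ replicates 1 to 3 it read 1023, 1649 and 4384. All 3 samples labelled MZ_Pou5f1 therefore lay below every MZ_Sox2 and every MZ sample. In WT_Sox2 it read 1701, 2592 and 24.9, and in WT 9.48, 10.6 and 1929. One sample of each wild-type group stood apart from its partners: WT_Sox2 replicate 3 was low where its partners were high, and WT replicate 3 was high where its partners read close to their dark features (8.42 and 8.80). No sample fell between 25.6 and 264. In whole-embryo RNA, fewer cells of a type and less RNA per cell cannot be told apart.

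The second klf17 probe, A_15_P119506, was above the dark controls in 10 of 16 samples: 1 of 3 MZ_Pou5f1, 3 of 4 MZ_Sox2, 3 of 3 MZ, 2 of 3 WT_Sox2 and 1 of 3 WT. It read 5.6, 7.16 and 27.1 in MZ_Pou5f1, against 213, 34.3 and 810 in MZ. Across the 16 samples the log2 values of the klf17 probes had a Pearson r of 0.893 and a Spearman rho of 0.912, a description with no test, since the probes share each sample's RNA and normalisation.

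klf2b showed nearly the same division. Its probe A_15_P119736 read 383, 142 and 171 in MZ_Pou5f1, 324, 3205, 5240 and 3369 in MZ_Sox2, and 11057, 18495 and 9927 in MZ. In WT_Sox2 it read 1220, 4698 and 174, and in WT 172, 134 and 11881. The 3 MZ samples were uniformly high, and the MZ_Pou5f1 samples, WT replicates 1 and 2, WT_Sox2 replicate 3 and MZ_Sox2 replicate 1 were low. These 7 low samples lay between 134 and 383 and the other 9 between 1220 and 18495. The other klf2b probe, A_15_P119126, put the same 7 samples at 103 to 303 and the other 9 at 1195 to 17388, and the klf2b probes had a Pearson r of 0.992 over the 16 samples.

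klf2a was detected well above the dark controls everywhere and moved over a narrower range. Its only probe read 3798, 1317 and 2925 in MZ_Pou5f1, 1303, 9451, 6946 and 4917 in MZ_Sox2, and 23546, 3000 and 8425 in MZ. In WT_Sox2 it read 4067, 7938 and 2345, and in WT 3339, 3048 and 14496. Every pair of groups overlapped. Between the lowest and the highest sample klf2a spanned 18.1-fold, against 138-fold for the klf2b probe A_15_P119736 and 561-fold for the klf17 probe A_15_P110039.

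**Figure D1:**
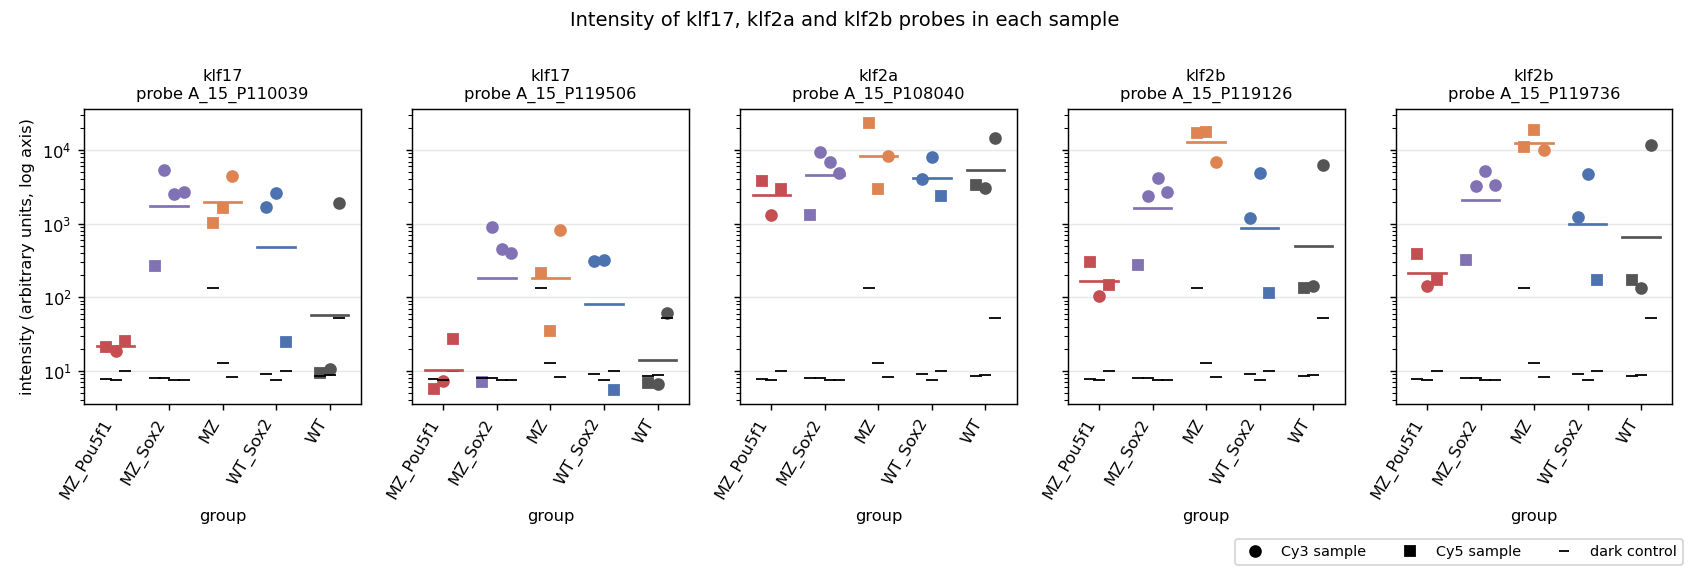
Intensity (arbitrary units, log axis) of each klf17, klf2a and klf2b probe in all 16 samples by group; circles are Cy3 and squares Cy5 samples, coloured bars the geometric group means and short black dashes the higher of 2 dark-control features of each sample. The 3 MZ_Pou5f1 samples of klf17 probe A_15_P110039 sit between 18.4 and 25.6 and the 3 MZ samples between 1023 and 4384, while klf2a overlaps between all groups.

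The order of the group means was the same for klf17 A_15_P110039 and klf2b A_15_P119736 and differed for klf2a. For klf17 A_15_P110039 the mean log2 intensity was 4.42 ± 0.24 in MZ_Pou5f1, 10.78 ± 1.89 in MZ_Sox2, 10.93 ± 1.07 in MZ, 8.90 ± 3.71 in WT_Sox2 and 5.85 ± 4.38 in WT (SD, n = 4 in MZ_Sox2 and 3 in the other groups). From low to high this is MZ_Pou5f1, WT, WT_Sox2, MZ_Sox2, MZ, and neighbours in that order overlapped at every step. klf2b A_15_P119736 averaged 7.72 ± 0.76 in MZ_Pou5f1, 11.01 ± 1.81 in MZ_Sox2, 13.63 ± 0.48 in MZ, 9.96 ± 2.39 in WT_Sox2 and 9.34 ± 3.64 in WT. The order was the same, and only MZ_Sox2 and MZ were neighbours without overlap. klf2a averaged 11.26 ± 0.80 in MZ_Pou5f1, 12.14 ± 1.26 in MZ_Sox2, 13.04 ± 1.49 in MZ, 12.05 ± 0.88 in WT_Sox2 and 12.37 ± 1.26 in WT, which puts WT second highest. All 3 genes thus had their highest mean in MZ and their lowest in MZ_Pou5f1 by these probes. On klf17 A_15_P119506 the highest mean was in MZ_Sox2, at 7.53 ± 3.17 (SD, n = 4), beside MZ at 7.50 ± 2.29 (SD, n = 3).

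The samples labelled as Pou5f1-injected mutants were compared with those labelled as uninjected mutants (MZ_Pou5f1 against MZ), although pou5f3 was not higher in the first. In a single limma fit of all samples that accounted for dye and array, klf17 A_15_P110039 was 6.51 lower on the log2 scale in MZ_Pou5f1 (difference -6.51, SE 1.59, 95% interval -9.96 to -3.06). Fitted differences here and below are adjusted for dye, and they can depart from the differences of the group means above. klf2b differed by -6.26 (SE 1.42) on A_15_P119126 and by -5.91 (SE 1.44) on A_15_P119736. klf17 A_15_P119506 differed by -4.14 (SE 1.41), a value that rests on levels at the dark controls, since 1 of 3 MZ_Pou5f1 samples was above them. The difference for klf2a was -1.78 (SE 0.88, interval -3.69 to 0.13). Only 9 of the 21495 probes had a larger absolute difference than klf17 A_15_P110039, and 10 and 12 than the klf2b probes. After Benjamini-Hochberg adjustment over all probes none of the 5 passed 0.05 (adjusted p = 0.409 to 0.416), nor did any probe on the array (background 0%). At an unadjusted p under 0.05, 4 of the 5 were lower, against 5.48% of all probes. The 3 MZ_Pou5f1 samples did not overlap the 3 MZ samples on 4 of 5 probes, all lower, against 6.51% of all probes. In both counts the 4 are the klf17 probes, A_15_P119506 included, and the klf2b probes, 2 for each gene. Probes of the same gene share each sample's RNA, so the 4 are not independent of each other. klf2a was the exception, since MZ replicate 2 at 3000 lay below MZ_Pou5f1 replicate 1 at 3798.

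MZ and MZ_Pou5f1 samples were partly split by slide but not by dye, since each group held 2 Cy5 samples and 1 Cy3 sample. All 3 MZ_Pou5f1 samples shared slide 3 with MZ replicate 3 only, and there the difference was -7.68 for klf17 A_15_P110039, -5.56 for klf2b A_15_P119736 and -1.78 for klf2a (3 samples against 1). Among Cy5 samples (2 against 2) klf17 A_15_P110039 differed by -5.81 and klf2b A_15_P119736 by -5.80, and among Cy3 samples (1 against 1) by -7.90 and -6.12. klf2a differed by -1.33 among Cy5 and by -2.68 among Cy3 samples. With MZ replicate 3 left out, both klf2b probes passed the threshold (-7.53 and -6.91, limma adjusted p = 0.037 and 0.043). Of all probes, 958 were called in that setting. Neither klf2b probe passed with MZ replicate 1 left out (limma adjusted p = 0.936) or with MZ replicate 2 left out (0.848). With MZ replicate 1 left out, the klf2a difference shrank to -0.43.

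The samples labelled as uninjected mutants were compared with those labelled as wild type (MZ against WT). After adjustment for dye, klf17 A_15_P110039 was 6.10 higher in MZ on the log2 scale (SE 1.59, 95% interval 2.64 to 9.57, about 68.8-fold). No other probe on the array had a larger absolute fitted difference. Its group means, without that adjustment, differed by 5.08. In WT replicates 1 and 2 this probe read 9.48 and 10.6, close to their dark controls of 8.42 and 8.80. The size and rank of the difference therefore rest partly on dim levels. Over all alternative settings the difference ranged from 4.22 to 8.07. klf2b was higher by 5.26 (SE 1.42) and 4.89 (SE 1.44). klf17 A_15_P119506 was higher by 4.79 (SE 1.42), with 1 of 3 WT samples above the dark controls, and klf2a by 0.91 (SE 0.88, interval -1.01 to 2.82). None of the 5 passed the threshold in the limma fit (Benjamini-Hochberg adjusted p = 0.297 to 0.669), where 1 probe of all passed (0.00465%). At an unadjusted p under 0.05, 4 of 5 were higher in MZ, against 5.54% of all probes. These were again the klf17 and klf2b probes, 2 for each gene and not independent. Only klf2b A_15_P119126 had no overlap between MZ and WT, against 5.23% of all probes higher in MZ. WT replicate 3 was high for klf2a, both klf2b probes and klf17 A_15_P110039. On klf17 A_15_P119506 that sample read 60.4, close to its dark control of 52.8.

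The arrays that carried an MZ and a WT sample together gave the same comparison within an array. For klf17 A_15_P110039, MZ replicate 1 minus WT replicate 2 was 6.60, MZ replicate 3 minus WT replicate 1 was 8.85, and MZ replicate 2 minus WT replicate 3 was -0.23. For klf2b the same pairs gave 6.36, 5.85 and 0.64 on A_15_P119736 and 6.91, 5.72 and 1.46 on A_15_P119126. klf2a gave 2.95, 1.34 and -2.27. The array with WT replicate 3 was the one on which klf17 and klf2a were lower in MZ. Without WT replicate 3 and MZ replicate 1 the klf17 difference became 8.07 and that of klf2b A_15_P119736 6.48 (limma adjusted p = 0.135 and 0.161, with no array block). Without WT replicate 2, klf17 A_15_P110039 passed the threshold at 4.38 (limma adjusted p = 0.02), and without MZ replicate 1 at 4.95 (limma adjusted p = 0.0341). Both klf2b probes passed in the same settings, and klf2a turned to -0.14 and -0.26. Of all probes, 1431 and 1359 were called there, and the array block correlation was 0.646 and 0.651, against 0.0429 with all samples. With WT replicate 1, WT replicate 3, MZ replicate 2 or MZ replicate 3 left out singly, no member passed. In that order, the limma adjusted p of klf17 A_15_P110039 was 0.741, 0.0993, 0.937 and 0.146.

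**Figure D2:**
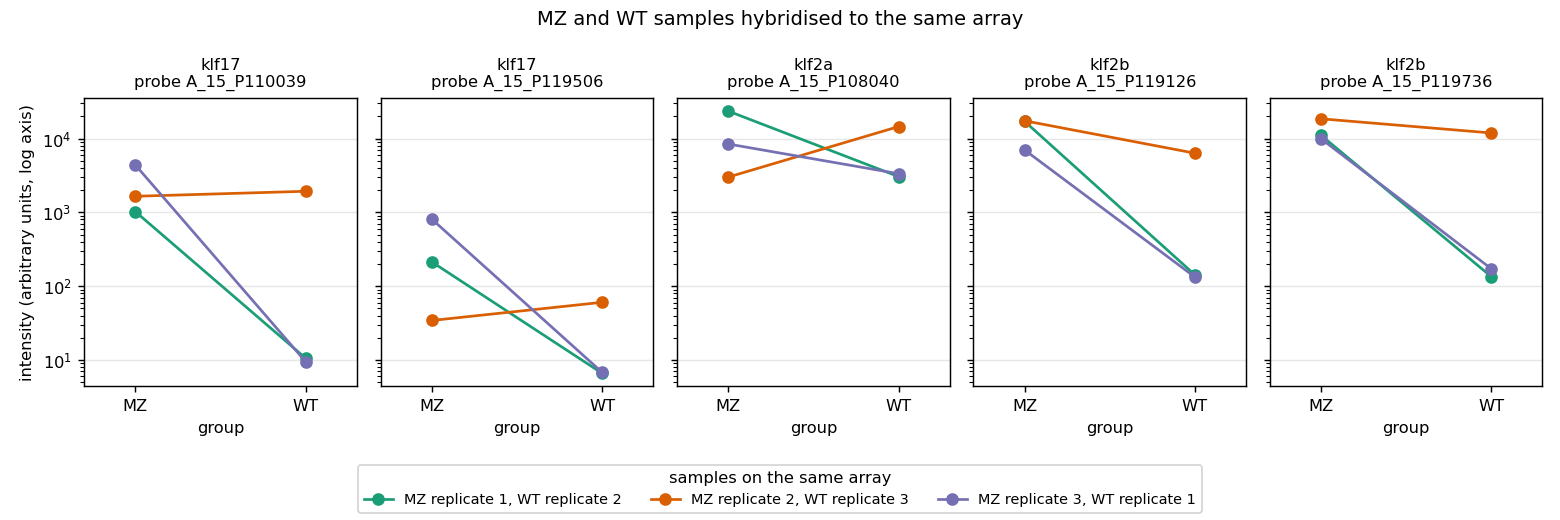
Intensity (arbitrary units, log axis) of the 5 probes in the MZ and WT samples that shared an array; each line joins the MZ to the WT sample of 1 of the 3 arrays. For klf17 A_15_P110039 and both klf2b probes, 2 of the lines drop steeply towards WT, and the line of MZ replicate 2 and WT replicate 3 changes least (a log2 difference of -0.23 for klf17, and 0.64 on A_15_P119736 and 1.46 on A_15_P119126 for klf2b).

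In mutants labelled as given Sox2 mRNA, klf17 overlapped the uninjected mutants and klf2b lay below them. In MZ_Sox2 against MZ, klf17 A_15_P110039 differed by -1.43 (SE 1.55, 95% interval -4.80 to 1.93) and klf2a by -1.19 (SE 0.86). Without the adjustment for dye, their group means differed by -0.15 and -0.89. klf2b differed by -3.65 (SE 1.38) and -3.37 (SE 1.40), and both klf2b probes lay below every MZ sample in all 4 MZ_Sox2 samples. Such a lower, non-overlapping pattern was seen in 2.09% of all probes. None of the 5 passed the threshold in the limma fit (Benjamini-Hochberg adjusted p = 0.77 to 0.819), nor any probe on the array (0%), and at an unadjusted p under 0.05 the 2 klf2b probes were lower, against 2.51% of all. MZ_Sox2 replicate 1, the group's one Cy5 sample and the only one on slide 1, was its lowest sample for every one of the 5 probes. Among Cy3 samples alone (3 against 1) klf2b A_15_P119736 differed by -1.37, and among Cy5 samples (1 against 2) by -5.47. Without MZ replicate 3 the klf2b differences were -5.23 and -4.60. Without MZ replicate 1 the difference on A_15_P119126 was -2.43, and without MZ replicate 2 that on A_15_P119736 was -2.17. MZ_Sox2 and MZ samples never shared a slide, and slide and group cannot be told apart in this comparison.

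In wild type labelled as given Sox2 mRNA, no member differed beyond the spread between samples. In WT_Sox2 against WT, klf17 A_15_P110039 was 3.05 higher (SE 1.59, 95% interval -0.40 to 6.50), klf2b A_15_P119736 0.62 higher (SE 1.44) and klf2a differed by -0.32 (SE 0.88). None of the 5 passed in the limma fit (Benjamini-Hochberg adjusted p = 0.405 to 0.893), none had an unadjusted p under 0.05 and none separated the groups, while 0.0977% of all probes passed, 14.5% had an unadjusted p under 0.05 and 27.3% separated them. Within Cy3 samples (2 against 2) klf17 A_15_P110039 was 3.88 higher, and within Cy5 samples (1 against 1) 1.39 higher. Its difference was 1.04 without WT replicate 2 and 5.20 without WT replicate 3. WT_Sox2 and WT samples never shared a slide either.

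The Sox2 effect was then set between the genotypes. For klf17 A_15_P110039 the effect in MZ minus that in WT was -4.48 (SE 2.19, limma adjusted p = 0.566), for klf2b -4.48 (SE 1.96) and -3.99 (SE 1.99), and for klf2a -0.87 (SE 1.21). None of the 5 passed the adjusted threshold and no probe on the array did (0%). The klf2b probe A_15_P119126 had an unadjusted p of 0.0406, against 4.49% of all probes lower at that level.

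The remaining comparisons set injected groups against each other or against wild type. In MZ_Pou5f1 against MZ_Sox2, klf17 A_15_P110039 differed by -5.08 (SE 1.55, 95% interval -8.44 to -1.71), and only 2 probes on the array had a larger absolute difference. It was the only one of the 5 without overlap, against 2.15% of all probes lower. klf2b differed there by -2.61 and -2.55 and klf2a by -0.60. Among Cy5 samples (2 against 1) klf17 A_15_P110039 differed by -3.52, klf2b A_15_P119736 by -0.34 and klf2a by 1.35. Among Cy3 samples (1 against 3) they differed by -7.50, -4.75 and -2.38. MZ_Pou5f1 and MZ_Sox2 samples never shared a slide, and slide and group cannot be told apart between them. In MZ_Pou5f1 against WT the differences were -0.40 for klf17 A_15_P110039, -1.03 for klf2b A_15_P119736 and -0.88 for klf2a, all with intervals that included 0 (klf17 -3.94 to 3.13). In MZ_Sox2 against WT_Sox2 they were 1.62, 0.90 and 0.04. None of the 5 probes passed in any of these comparisons in the limma fit (Benjamini-Hochberg adjusted p = 0.784 to 1), against 0%, 0% and 0.0186% of all probes. At an unadjusted p under 0.05 only klf17 A_15_P110039 in MZ_Pou5f1 against MZ_Sox2 was counted, beside 1.25% of all probes lower in that comparison, 7.24% in either direction in MZ_Pou5f1 against WT and 7.57% in MZ_Sox2 against WT_Sox2. Several of these comparisons share samples, such as the MZ samples in the comparisons with each injected mutant group and with WT, and their values are not independent of each other.

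**Figure D3:**
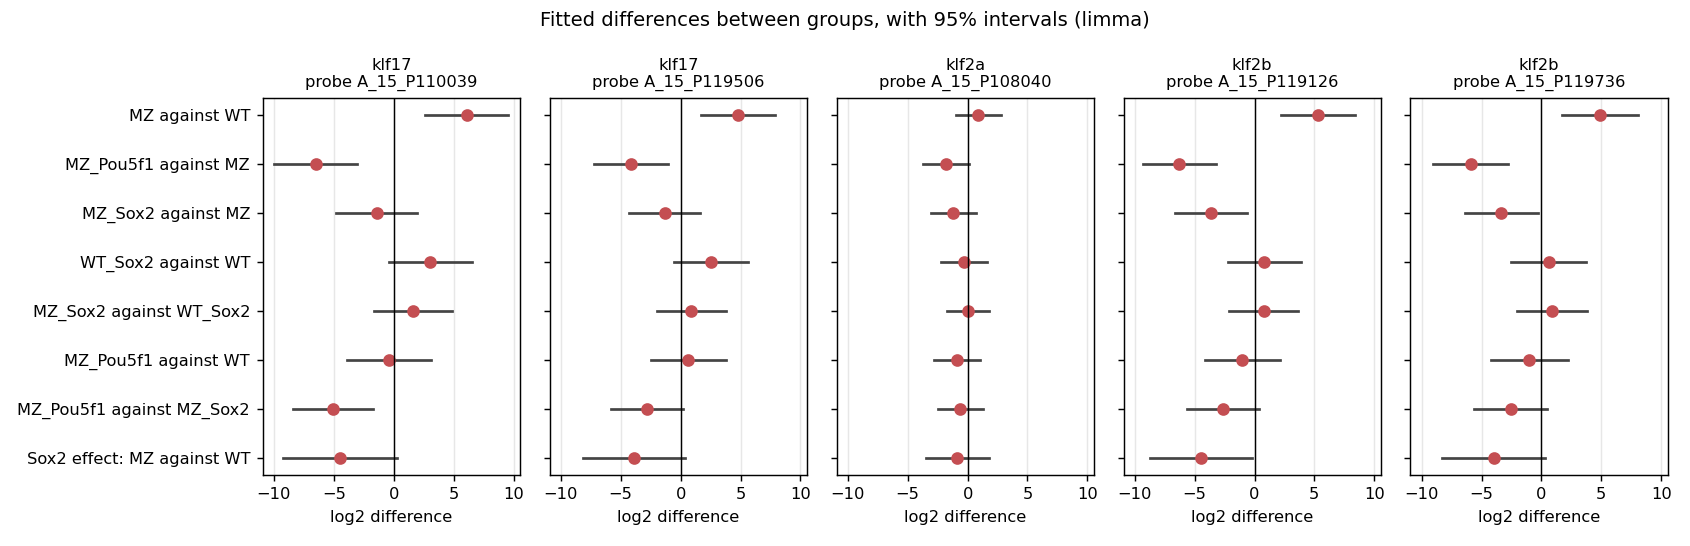
Fitted log2 differences (first group minus second, points) with 95% intervals (lines) for the 5 probes in the 8 comparisons of the limma fit. For klf17 and klf2b the intervals of MZ against WT lie above 0 and those of MZ_Pou5f1 against MZ below 0, and klf2a intervals include 0 in every comparison; none passes after adjustment over 21495 probes.

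The dyes were unevenly spread over the bright and dim samples. The 7 Cy5 samples had a median klf17 A_15_P110039 intensity of 25.6 (range 9.48 to 1649), and the 9 Cy3 samples had a median of 2568 (range 10.6 to 5319). Of the 6 samples low for klf17, 4 were Cy5 and 2 Cy3. The corresponding medians were 324 in Cy5 and 3369 in Cy3 samples for klf2b A_15_P119736, and 3000 and 6946 for klf2a. MZ replicates 1 and 2, both Cy5, were high for klf17 and klf2b. The part of dye in these levels beyond the covariate was not tested.

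The wider family of Krüppel-like and Sp factors, which share the zinc-finger DNA-binding domain, was mostly less variable. Of 35 listed family genes 21 were measured, 18 of them besides klf17, klf2a and klf2b, and 0 of the 18 were called in any comparison. In MZ_Pou5f1 against MZ, 12 of the 18 had a negative difference, with a median of -0.71 against 0.06 over all probes. At an unadjusted p under 0.05, 4 of the 18 were lower, against 5.48% of all probes. The largest was sp5l, a Wnt-responsive gene of the early mesoderm, at -4.73 (SE 1.44, limma adjusted p = 0.409). klf15, klf3, sp9 and sp5a followed at -2.63, -2.47, -2.56 and -2.49, while sp1, a ubiquitous activator, differed by 0.49 and klf6a by 0.21. Of the 4 lower genes, klf15, klf3 and sp9 were dim in MZ_Pou5f1. There sp9 was at 2.475, 3.409 and 3.078, close to the dark controls, and klf3 at 3.587, 3.473 and 4.892. In MZ replicate 1 sp9 was at 5.104, below that sample's dark control of 133, against 5.935 and 5.59 in replicates 2 and 3. klf15 was at 8.68 in MZ replicate 1, against 5.733 and 5.268 in replicates 2 and 3. In MZ against WT, 14 of the 18 were positive with a median of 0.59 against -0.04 over all probes, with sp5l at 2.38 and sp9 at 2.33. sp1 spanned log2 13.57 to 14.91 over the 16 samples and klf6a 9.70 to 10.90, whereas sp5l spanned 5.29 to 13.30. klf17 A_15_P110039 had the widest spread of the 21, with an SD of 3.55 over the samples, followed by klf2b (2.68) and sp5l (2.22), and klf2a had 1.16. Some of the family were dim. klf1 and klf7a averaged a log2 intensity of 3.42 and 3.22, close to the dark controls of most samples, where a small spread does not show stable expression.

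**Figure D4:**
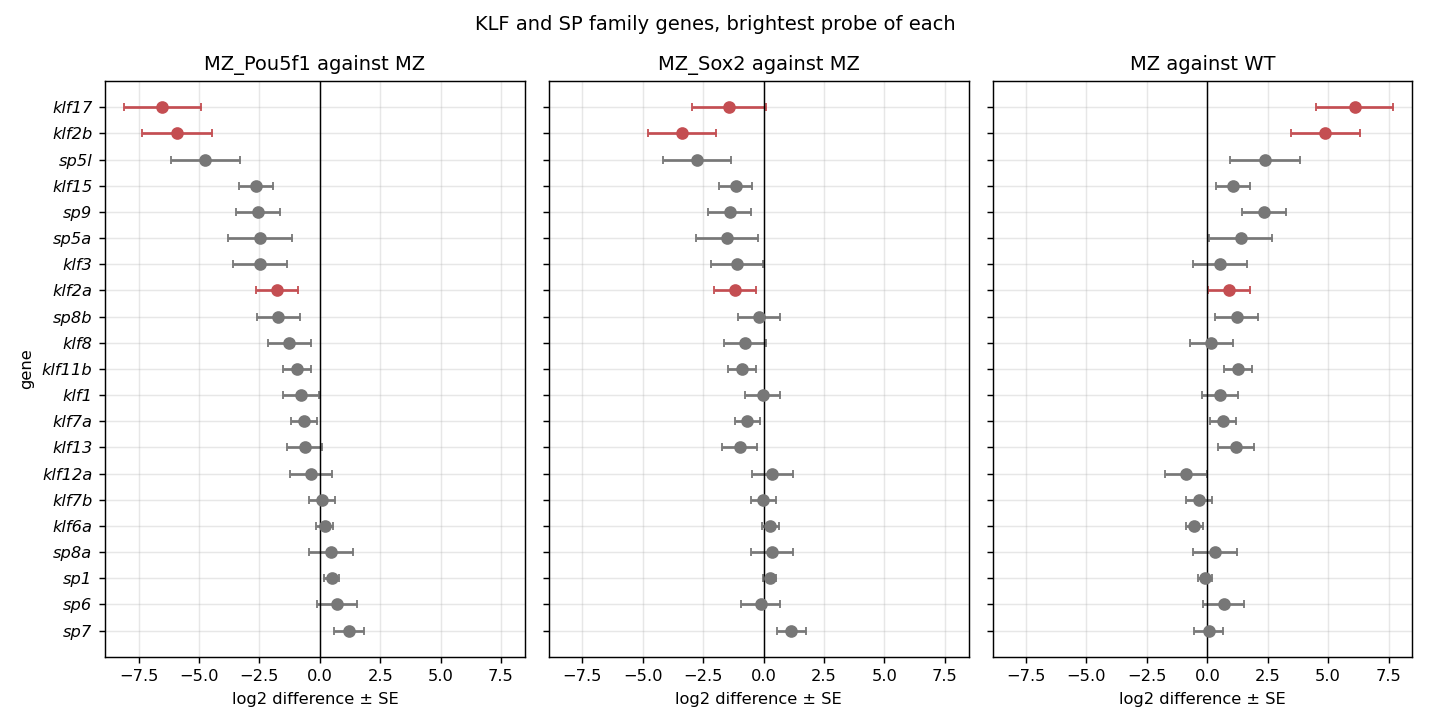
Fitted log2 difference ± SE of the 21 measured Krüppel-like and Sp genes (brightest probe of each, klf17, klf2a and klf2b in red) in 3 comparisons, ordered by MZ_Pou5f1 against MZ. klf17 (-6.51), klf2b (-5.91) and sp5l (-4.73) lie at the negative end in MZ_Pou5f1 against MZ and klf17 and klf2b at the positive end in MZ against WT; no gene passes after adjustment.

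The genes most like each member in pattern were ranked by Pearson r of log2 values over the 16 samples among 6091 named genes, as a description with no test. For klf17 A_15_P110039 they were apoeb (0.939), an apolipoprotein gene of the yolk syncytial layer, cxcr4b (0.912), a chemokine receptor gene, hspb1 (0.912), cbr4 (0.908) and foxd3 (0.905), a transcription factor gene of the blastula. For klf2b A_15_P119736 they were ralab (0.974), cxcr4b (0.969), apoeb (0.953), otx2a (0.952) and ved (0.948), a ventral homeobox gene. For klf2a they were marcksl1a (0.906), ved (0.83), otx2a (0.827), sox19a (0.826) and epyc (0.823). apoeb averaged a log2 intensity of 7.10 in MZ_Pou5f1, 12.78 in MZ_Sox2, 14.24 in MZ, 10.14 in WT_Sox2 and 9.55 in WT. Among the members themselves r was 0.895 for klf17 with klf2b, 0.749 for klf2a with klf2b and 0.627 for klf17 with klf2a. By rank these pairs were nearly alike, with a Spearman rho of 0.694, 0.679 and 0.653. For the most alike genes named above, rho was 0.77 to 0.87 with klf17, 0.87 to 0.95 with klf2b and 0.76 to 0.92 with klf2a.

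The members were then set beside a list of other genes taken here as early zygotic. The list was not uniform. In it otx1 was at a log2 intensity of 13.2 or more in every sample, and eve1 and fgf3 were dim, averaging 3.96 and 3.59. The gene sp5l is also in the family list above. The median log2 intensity of 38 such genes, without klf17, klf2a and klf2b, was 6.09 to 8.04 in MZ_Pou5f1 samples, 7.06 to 9.27 in MZ_Sox2, 9.50 to 11.29 in MZ, 6.99 to 9.42 in WT_Sox2 and 7.08 to 11.24 in WT. WT replicate 3, high for all 3 genes by their brightest probes, had the 11.24, and WT replicates 1 and 2 had 7.24 and 7.08. MZ_Sox2 replicate 1, the group's lowest sample for all 3 genes, had the 7.06. The match was not close in every sample. The list was at 8.04 in MZ_Pou5f1 replicate 1 and 7.72 in WT_Sox2 replicate 1, where klf17 A_15_P110039 read 20.9 and 1701. It was at 7.06 in MZ_Sox2 replicate 1 and 7.24 in WT replicate 1, where klf17 read 264 and 9.48. klf2a read only 3000 in MZ replicate 2, with the list at 11.27. In MZ_Pou5f1 against MZ, 36 of these 38 genes had negative differences with a median of -2.39, against 0.06 over all probes. By limma 0 were called, and 30 were lower at an unadjusted p under 0.05, against 5.48% of all probes. In MZ against WT 34 were positive with a median of 2.1, against -0.04. The part of these list levels in the differences of klf17, klf2a and klf2b was not tested.

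**Figure D5:**
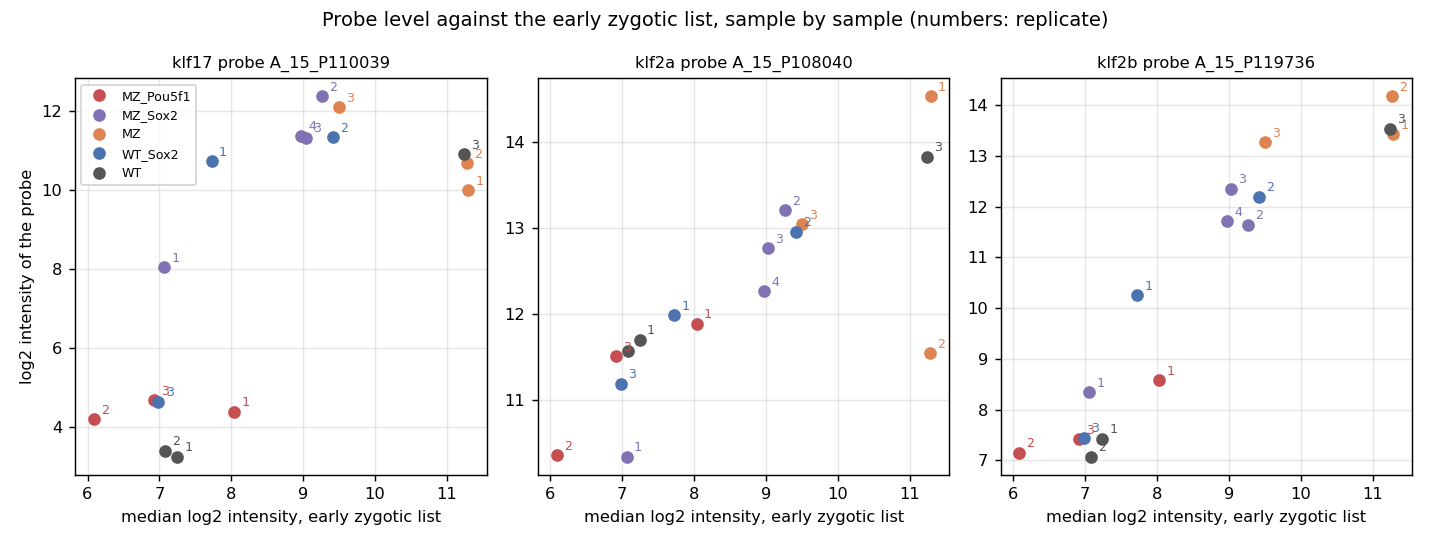
Log2 intensity of the brightest probe of klf17, klf2a and klf2b (vertical) against the median log2 intensity of 38 early zygotic genes (horizontal) in each of the 16 samples, coloured by group with the replicate number beside each point. Samples with the list at 8.97 or more are high for klf17 and klf2b, WT replicate 3 (11.24) included, and for klf2a MZ replicate 2 lies apart at a low level.

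Enveloping-layer genes differed among themselves in whether they were high in the samples high for klf17. krt4, a keratin gene of that layer chosen here after its values were seen, had a log2 intensity of 7.66 in MZ replicate 3 against 12.17 and 12.50 in MZ replicates 1 and 2, although replicate 3 had the highest klf17 of the group. In MZ_Sox2, krt4 was 12.58 and 11.97 in replicates 2 and 4 but 6.98 in replicate 3, while klf17 A_15_P110039 was 2568 or more in all 3. In WT_Sox2 replicates 1 and 2, krt4 was 6.64 and 6.71. The markers krt8, krt18a.1 and krt5 were also lower in MZ replicate 3, at 9.25, 8.27 and 5.83. They were at 12.46, 11.47 and 9.30 in MZ replicate 1 and at 12.74, 11.29 and 8.96 in MZ replicate 2. Not all keratins of the list were that low in MZ replicate 3. There krt97 was 6.75, against 5.86 and 6.69 in MZ replicates 1 and 2, and krt92 was 8.43, against 9.63 and 8.89. cyt1 was also highest there in replicate 3, at 4.97 against 4.03 and 4.37. In MZ replicate 1 both krt97 and cyt1 lay below that sample's dark control of 133. For these 2 genes only the comparison with MZ replicate 2 rests on levels above the dark controls. The median of the 5 enveloping-layer markers was 6.15 to 7.34 in MZ_Pou5f1, 6.98 to 11.92 in MZ_Sox2, 7.66 to 11.47 in MZ, 6.59 to 7.37 in WT_Sox2 and 6.93 to 8.89 in WT, and cyt1 spanned 2.98 to 5.50 over all samples. Of 32 enveloping-layer and epidermal genes measured, 24 had negative differences in MZ_Pou5f1 against MZ (median -1.36, against 0.06 over all probes). Of these, 10 had an unadjusted p under 0.05, against 5.48% of all probes lower, and 0 were called by limma. The strongest by their moderated statistic were the forkhead gene foxi1 at -3.87 (SE 0.96) and the homeobox gene dlx5a at -2.30 (SE 0.57), both with a limma adjusted p of 0.409. dlx5a was dim, at 3.72, 3.49 and 3.03 in MZ_Pou5f1, close to the dark controls. In MZ replicate 1 it was at 5.83, below that sample's dark control of 133. Some other genes of the 32 were dim as well. krt15, krt94, krt18b, cldne and anxa1c averaged 2.76 to 3.30 over all samples, where the sign of a difference says little. In MZ against WT 26 of the 32 were positive with a median of 0.87.

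Hatching gland genes, in the tissue for which klf17 is known later in development, showed no common shift. Of 7 measured, 5 had negative differences in MZ_Pou5f1 against MZ with a median of -0.10. By limma 0 were called, and 0 had an unadjusted p under 0.05, against 12.2% of all probes in either direction. prdm1a, a transcription factor gene of that lineage, was 2.16 higher in MZ_Pou5f1 (SE 1.0) and ctslb, a cathepsin gene of the gland, differed by -1.51 (SE 0.74). In MZ replicate 1 prdm1a and ctslb, at 2.80 and 3.82, both lay below that sample's dark control of 133. In MZ replicates 2 and 3 ctslb was at 4.49 and 6.73. he1.2, agr2 and ctslb were dim, with averages of 3.20, 3.73 and 4.03 over all samples, so a shift in them could be missed. Of 10 other pluripotency and blastula regulators, 10 had negative differences in MZ_Pou5f1 against MZ (median -1.82, against 0.06 over all probes) and 8 an unadjusted p under 0.05, against 5.48% of all probes lower. In MZ against WT 9 of the 10 were positive (median 0.96, against -0.04). This list includes pou5f3 and sox2, whose levels went against the labels or did not check them. It also includes foxd3 and her3, which are in the early zygotic list too, so the lists are not separate sets. Of 14 maternal and germ line genes, 10 had positive differences in MZ_Pou5f1 against MZ (median 0.23) and 7 in MZ against WT (median 0.06). None of these list members was called in either comparison.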

How the data were processed

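RNA of 16 samples in 5 groups was measured on 2-colour Agilent arrays. Agilent Feature Extraction is named in the submitters' processing notes. Per the labels' design text, channels were separated, normalised by quantiles and analysed singly. The deposited values are linear probe intensity values, with background correction and genome build not stated in the sources used. The sorted values were identical in 14 columns. MZ_Sox2 replicate 4 and MZ_Pou5f1 replicate 2 differed and were mapped by rank onto that distribution (median intensity 55.1). Intensities were taken to log2. Of 21555 features, 60 controls were left out. Precision is limited by the number of arrays, and there is no read depth.

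A single gene symbol was listed for 12887 probes and none for 8608 in the platform's probe-to-gene file. RefSeq genes of assembly GRCz12tu, used for names only, included 12807 of them and changed 0 symbols. The dark control is the higher of 2 control features in each sample. In MZ replicate 1 it was 133, above the common median intensity of 55.1. A reading below it in that sample is not by itself a sign of no expression. A gene in a list is represented by its brightest probe.

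All 16 samples entered 1 limma fit of group means with a dye term and a random effect of array (consensus correlation 0.0429, 10 residual and 2.31 prior degrees of freedom). Tests of 8 contrasts were two-sided, Benjamini-Hochberg adjusted over 21495 probes, threshold 0.05. All probes of the members, the 5 genes most alike, the Krüppel-like and Sp family, and of the enveloping-layer and hatching gland lists the 2 genes with the largest moderated statistic were named by rule. Any further gene was picked with its values in view. The members and lists were chosen with earlier results of these data known. The fit was run on simulated data of independent noise, for MZ_Pou5f1 against MZ only. These data held no dye or array effects, so the handling of such effects was not tested. Alternatives covered normalisation, offset, dye, block, slide, dim probes, samples fitted, sample weights, empirical Bayes settings and each sample left out. Computations used R 4.3.3, limma 3.58.1, version 1.17.8 of data.table, Python 3.11.15 and matplotlib 3.10.9.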

Additional observations from a re-analysis of the deposited data

Results flagged for a closer look

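In 5 of 37 probes examined (the members, the Krüppel-like and Sp family, the injected genes and the genes most alike), 1 sample of a group of 4 lay far from the other samples of that group. Only MZ_Sox2 has 4 samples, and chance flags about 1 in 20 groups. The klf17 probe A_15_P119506 was at a log2 intensity of 2.83 in MZ_Sox2 replicate 1 and at 8.65 to 9.79 in the other replicates, a gap of 0.835 of the whole range. In the same sample sox19a was at 9.04 against 12 to 12.55 (gap 0.844), the pou5f3 probe A_15_P117974 at 13.96 against 15.01 to 15.15 (gap 0.886), and sp8b was high at 11.13 against 7.82 to 8.35 (gap 0.839). klf1 was at 5.84 in MZ_Sox2 replicate 3 against 2.94 to 3.18 in the others (gap 0.917). MZ_Sox2 replicate 1 was the only Cy5 sample of its group and the only one on slide 1, and the part of dye and slide in these values was not tested.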

How the results depend on the processing

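In MZ against WT and in MZ_Pou5f1 against MZ the difference kept its direction in 20 of 20 alternatives for each klf17 and klf2b probe, and klf2a kept it in 18 and 20. Of 835 alternative values of the members' differences, 759 kept direction and side of the threshold, 52 reversed and 24 passed the threshold. No read depth limits these values; klf17 A_15_P119506 is limited by its nearness to the dark controls.

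The replicate numbers paired the samples poorly (correlations of deviations -0.68 to 0.51, over 0.1 in 4 of 21 pairs). With replicate number as a block no member passed, and 3, 0 and 0 probes were called in MZ against WT, WT_Sox2 against WT and MZ_Sox2 against WT_Sox2.

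Other settings are given in the same order of comparisons where the count of called probes moved. The counts for these 3 were 0, 0 and 2 with all columns as deposited, 0, 0 and 1 with only bright probes and 0, 0 and 0 with only the groups of the comparison. In WT_Sox2 against WT, 36 were called with cyclic loess, 6 with an offset of 50, 0 with slide as a random block and 2 without both columns of another distribution. In MZ_Sox2 against WT_Sox2 the corresponding counts were 2 with the offset, 0 with slide at random, 1 without both columns and 2 without dye. Options for trend and robust fits gave 10 in MZ_Sox2 against WT_Sox2, 1 in MZ_Sox2 against MZ and 0 in MZ against WT. Without both columns 1 was called for the difference of the Sox2 effects, and with only those groups 2.

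With only the 2 groups in the fit, the klf2b differences in MZ_Pou5f1 against MZ, -6.26 and -5.91, passed (limma adjusted p = 0.018 and 0.0365) and 22 probes were called. Sample weights, whose estimate stopped before its tolerance, called 14 member differences. These were 7.98 and 4.09 for klf17 and 6.97 and 6.81 for klf2b in MZ against WT, and -6.94 for klf17 and -6.63 and -6.25 for klf2b in MZ_Pou5f1 against MZ. They were also 6.12, 4.14, 2.74 and 2.70 in WT_Sox2 against WT, and -7.10, -5.73 and -5.30 for the difference of the Sox2 effects. Weights called 5467, 3234, 2, 5494, 3741, 2198 and 4679 probes in the comparisons other than MZ_Pou5f1 against MZ_Sox2. They reversed klf17 A_15_P119506 (0.66) and klf2a (0.32) in MZ_Sox2 against MZ, klf2a in WT_Sox2 against WT (0.36), and klf17 (1.04) and klf2b (0.34 and 0.55) in MZ_Pou5f1 against WT.

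Other settings also reversed differences. Without dye klf17 A_15_P119506 became 0.027 in MZ_Sox2 against MZ. In MZ_Pou5f1 against WT it became -0.44 without dye and -0.31 with only the 2 groups. klf2a in MZ_Sox2 against WT_Sox2 became -0.058 with only the 2 groups and -0.23 with slide at random. Slide as a fixed block gave -1.88 for klf17 A_15_P119506, -1.54 for klf2a and -0.84 and -0.74 for klf2b there with 86 probes called, and 0.26, -0.18 and 0.22 for both klf17 probes and klf2b A_15_P119126 in MZ_Pou5f1 against WT. It called 0 probes in MZ against WT and 65 for the difference of the Sox2 effects, and had no value for MZ_Sox2 against MZ, WT_Sox2 against WT and MZ_Pou5f1 against MZ_Sox2, whose groups share no slide. Without both columns of another distribution MZ_Pou5f1 against WT gave 1.31 for klf17, 0.14 for klf2a and 0.33 and 0.27 for klf2b, and klf2a was 0.41 in MZ_Pou5f1 against MZ_Sox2. Leaving out WT replicate 3 and MZ replicate 1 together was chosen after seeing the data. It called 5, 6, 2, 4, 8 and 1 probes in MZ against WT, MZ_Pou5f1 against MZ, MZ_Sox2 against MZ, WT_Sox2 against WT, MZ_Sox2 against WT_Sox2 and the difference of the Sox2 effects. Under it klf2a was 0.28 in WT_Sox2 against WT, and klf17 1.51 and klf2b 0.50 and 0.69 in MZ_Pou5f1 against WT.

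With 1 sample left out, MZ against WT ranged from 4.38 to 8.07 for klf17 A_15_P110039, 3.79 to 6.81 and 3.35 to 6.66 for klf2b, and -0.26 to 1.41 for klf2a. klf17 A_15_P110039 and both klf2b probes passed without WT replicate 2 (1431 probes called) and without MZ replicate 1 (1359 called), where the block correlation was 0.646 and 0.651. MZ_Pou5f1 against MZ ranged from -7.53 to -4.93 and from -6.91 to -4.55 for klf2b, with 958 probes called without MZ replicate 3. WT_Sox2 against WT ranged from 1.04 to 5.20 for klf17 A_15_P110039, from -1.53 to 0.23 for klf2a and from -0.77 to 2.52 and -1.11 to 2.56 for klf2b. MZ_Sox2 against MZ ranged from -5.23 to -2.43 and -4.60 to -2.17 for klf2b. MZ_Sox2 against WT_Sox2 ranged from -0.11 to 1.91 for klf17 A_15_P119506, -0.26 to 0.62 for klf2a and -0.28 to 1.81 for klf2b A_15_P119126. MZ_Pou5f1 against WT ranged from -2.13 to 1.56 and -0.84 to 2.67 for klf17, -1.92 to 0.13 for klf2a and -2.48 to 0.55 and -2.56 to 0.75 for klf2b. klf2a ranged from -1.33 to 0.46 in MZ_Pou5f1 against MZ_Sox2 and from -1.36 to 0.25 for the difference of the Sox2 effects. Called probes ranged from 0 to 1431 in MZ against WT, 0 to 958 in MZ_Pou5f1 against MZ, 0 to 8 in MZ_Sox2 against MZ, 0 to 121 in WT_Sox2 against WT, 0 to 97 in MZ_Sox2 against WT_Sox2, 0 to 5 in MZ_Pou5f1 against WT and 0 to 22 for the difference of the Sox2 effects. The cause of these changes was not tested.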
